A study of Mus musculus with 6 samples.

Results

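This account covers the mouse microRNA genes with a number of 500 or less, together with the let-7 genes, in CD4 T cells of the lung. Their symbols had to start with Mir and a number of at most 500, with letter and copy suffixes allowed, or with Mirlet7. Only probe sets that named exactly 1 gene were used, and a gene with several was represented by its brightest, judged by the mean of the 6 arrays. This gave 257 microRNA genes of 22180 genes measured, 247 of them with 1 probe set and 10 with several. A further 61 probe sets named a microRNA gene beside another symbol and stayed out of the 257, among them the one for Mir155, whose values are given separately.

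The samples were wild-type (WT) mice given either house dust mites (HDM), a common source of airway allergens, or phosphate-buffered saline (PBS) as the control, with 3 arrays per group. Lungs were digested with Liberase and DNase, and cells that stained for CD45 and CD4 but not for CD11b or F4/80, both proteins of macrophages and other myeloid cells, were sorted. Total RNA was labelled with biotin and hybridised to whole-transcript arrays. The titles call the arrays of each group biological replicates. The labels do not state the dose, the days of treatment, the age of the mice or how many mice stand behind each sample. A p-value therefore covers only the spread among the arrays, part of which may be technical. All values below are log2 signals, and a difference is the HDM mean minus the PBS mean on that scale.

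MicroRNAs are short RNAs that guide Argonaute proteins to messenger RNAs and lower the output of those messages. They are cut from longer transcripts, first in the nucleus by Drosha with Dgcr8 and then in the cytoplasm by Dicer, and the bases near the 5′ end, the seed, do most of the target recognition. In CD4 T cells, Mir155 and the cluster around Mir17 are known for promoting activation, proliferation and helper functions, Mir146 for restraining activation, and Mir150, Mir181 and Mir142 for lymphocyte development and homeostasis. The signal of a whole-transcript array for such a gene can come from the primary transcript, the precursor or the mature microRNA, and these cannot be told apart here.

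The mature sequences of the microRNAs on which the results turn are shown so that relatives can be seen side by side. They came from RefSeq (mouse build GRCm38.p6), run 5′ to 3′, and have the seed, bases 2 to 8, in capitals. RefSeq gave a hairpin for 219 of the 257 genes and a mature sequence for 229, and Mir30b had none in the table used. The first 4 belong to the family of Mir17 and come from the plus strand of chromosome 14, except Mir106b, on the minus strand of chromosome 5. Mir17, Mir20a and Mir106b share 1 seed, while that of Mir18 is another:
Mir17, chr14:115043684-115043706: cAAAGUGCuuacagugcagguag
Mir20a, chr14:115044183-115044205: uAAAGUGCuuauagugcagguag
Mir106b, chr5:138165787-138165807: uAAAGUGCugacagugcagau
Mir18, chr14:115043867-115043889: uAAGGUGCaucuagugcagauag
Mir19a, from the same stretch of chromosome 14, carries an unrelated seed, and Mir7-1 (minus strand) and Mir345 (plus strand) are the other genes with lower signal by the test that have a sequence:
Mir19a, chr14:115044048-115044070: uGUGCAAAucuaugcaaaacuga
Mir7-1, chr13:58392841-58392863: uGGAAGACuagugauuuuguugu
Mir345, chr12:108836989-108837010: gCUGACCCcuaguccagugcuu

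The relatives Mir15b, Mir15a and Mir16 share 1 seed across 2 clusters, on the plus strand of chromosome 3 and the minus strand of chromosome 14, and are shown because the clusters differed in direction. Mir16-1 and Mir16-2 yield the same mature sequence, so only the first is printed:
Mir15b, chr3:69009775-69009796: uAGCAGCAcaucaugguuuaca
Mir15a, chr14:61632075-61632096: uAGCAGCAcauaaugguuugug
Mir16-1, chr14:61631936-61631957: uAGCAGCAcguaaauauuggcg
Mir30e and Mir30c-1 (both minus strand) share a seed and a host gene, and Mir23a and Mir27a (both plus strand) share a cluster but not a seed. Mir155 (plus strand) closes the set:
Mir30e, chr4:120772660-120772681: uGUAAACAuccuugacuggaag
Mir30c-1, chr4:120769584-120769606: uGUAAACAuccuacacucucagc
Mir23a, chr8:84208563-84208583: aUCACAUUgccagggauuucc
Mir27a, chr8:84208727-84208747: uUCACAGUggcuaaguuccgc
Mir155, chr16:84714143-84714165: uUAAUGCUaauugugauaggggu

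The precursor hairpins of the called genes with a sequence are shown whole, since the array may read any stretch of them. Capitals mark both mature arms:
Mir17, chr14:115043671-115043754, plus strand: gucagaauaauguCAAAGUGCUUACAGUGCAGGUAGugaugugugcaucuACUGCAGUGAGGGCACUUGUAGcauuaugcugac
Mir7-1, chr13:58392779-58392886, minus strand: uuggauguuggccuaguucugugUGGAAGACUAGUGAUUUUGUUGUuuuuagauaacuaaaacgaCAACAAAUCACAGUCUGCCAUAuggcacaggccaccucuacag
Mir345, chr12:108836973-108837068, plus strand: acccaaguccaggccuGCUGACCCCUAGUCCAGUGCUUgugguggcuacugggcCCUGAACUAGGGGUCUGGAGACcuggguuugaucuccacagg

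Array medians over all probe sets lay between 6.57 and 6.64, and no 2 arrays shared more than 11 identical values. The CD4 T cell markers, of which 5 of 6 were measured, averaged 12.2 to 12.4 on every array with no call (Cd3g was higher with the replicate number as a block, by 0.19). Markers of 8 macrophage genes averaged 7.97 to 8.03 on the PBS arrays and 8.76 to 9.06 on the HDM arrays, with 2 genes called higher, Chil3 (2.11) and Retnla (3.85), while the differences of the other 6 ran from -0.18 to 0.42. Of the dendritic cell markers 1 of 3 rose, Itgax (1.06), while Flt3 and Zbtb46 each differed by -0.01. The 3 averaged 6.87 to 7.11 in PBS and 7.18 to 7.48 in HDM. Epithelial markers had 1 of 4 higher, at 8.34 to 9.23 and 8.73 to 9.39, and endothelial markers 1 of 4 lower, at 8.47 to 9.51 and 7.83 to 9.14. With the block, 3 of the 4 endothelial markers were lower (Pecam1, Cdh5 and Tek), and 1 epithelial marker, Sftpc, was lower while Cdh1 stayed higher. B cell (2 of 3 measured), CD8 and natural killer, stromal, and mast cell and granulocyte markers had no call in either fit. The part that such other cells, or fewer cells of a type against less RNA per cell, may have had in the microRNA differences was not tested.

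The microRNA genes were dim on these arrays. Their mean signals ran from 3.16 to 12.9 with a median of 5.20, while the median over all genes was 6.89, and 160 of them (62.3%) lay below the 25th percentile of all genes. The spread between arrays of a group, as the median SD, was 0.166 for microRNA genes and 0.132 for all genes. Signal followed the base composition of the hairpin across the 219 genes with a hairpin, with Pearson r of 0.488 and Spearman rho of 0.468 between GC content and mean signal. The 73 hairpins with the lowest GC (at most 44.44%) had a median signal of 4.07, and the 73 with the highest (at least 51.39%) had 5.81. Hairpin length and mean signal had a Spearman rho of 0.281. These points share the same arrays and probe chemistry, and what gave the relations was not tested. Signal was therefore not read as an order of abundance between microRNAs. GC content and the HDM minus PBS difference had a rho of -0.099.

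**Figure D1:**
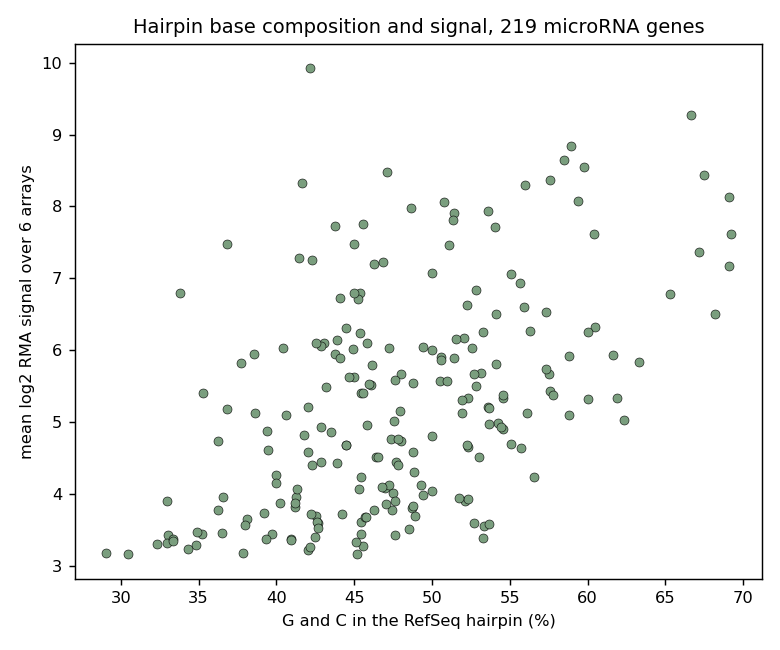
Mean log2 signal over the 6 arrays (y axis) against the GC content of the RefSeq hairpin in percent (x axis), with 1 point for each of 219 microRNA genes. Signal is higher toward GC-rich hairpins, with a Spearman rho of 0.468 across genes.

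The 6 brightest microRNA genes gave no call between the groups. Mir449b read 12.95, 12.81 and 13.01 on PBS arrays 1, 2 and 3 and 12.90, 12.80 and 12.97 on the HDM arrays, a difference of -0.03. Mir449b is known from multiciliated epithelium, and its neighbours Mir449a (-0.09) and Mir449c (0.18) were not called either. Mir142, known from blood cells, read 10.45, 10.39 and 10.20 in PBS and 9.63, 8.67 and 10.20 in HDM. Its difference of -0.85 ± 0.33 (SE) did not pass limma's moderated test (adjusted p = 0.226), as the HDM arrays spread from 8.67 to 10.20. Without HDM array 2 the difference was -0.44, and without HDM array 3 it was -1.20 and passed (adjusted p = 0.031). The others were Mir466h at 0.13, Mir467c at 0.11, Mir467e at -0.11 and Mir339 at 0.20. Mir466h, Mir467c and Mir467e belong to large families of near-identical copies, so signal of one copy may come from others.

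Between HDM and PBS cells, 4 microRNA genes fell and none rose by limma at an adjusted p of 0.05. The 4 were Mir345, Mir7-1, Mir17 and Mir30b, which is 1.56% of the 257, against 345 of all 22180 genes lower, 1.56%, and 531 higher, 2.39% (either way 3.95%). The share of lower calls among microRNA genes was thus that of all genes, and no direction particular to microRNA genes can be read from it. At an unadjusted p below 0.05 the counts were 9 higher (3.5%, all genes 8.67%) and 31 lower (12.1%, all genes 9.17%). Groups that did not overlap numbered 12 higher (4.67%, all genes 10.8%) and 28 lower (10.9%, all genes 11.8%).

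The differences as a whole ran from -1.33 to 0.89 with a median of -0.04, and the median over all genes was -0.01. Of the 257 genes, 158 (61.5%) lay below 0, beside 51.6% of all genes. A difference of -0.5 or lower was seen in 19 microRNA genes (7.39%, all genes 2.84%) and one of 0.5 or more in 7 (2.72%, all genes 3.76%). The wider spread between replicate arrays given above holds for the same genes. MicroRNA genes with numbers above 500, of which 221 were measured, had 3 higher and 3 lower calls (1.36% each), and a median difference of -0.03.

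**Figure D2:**
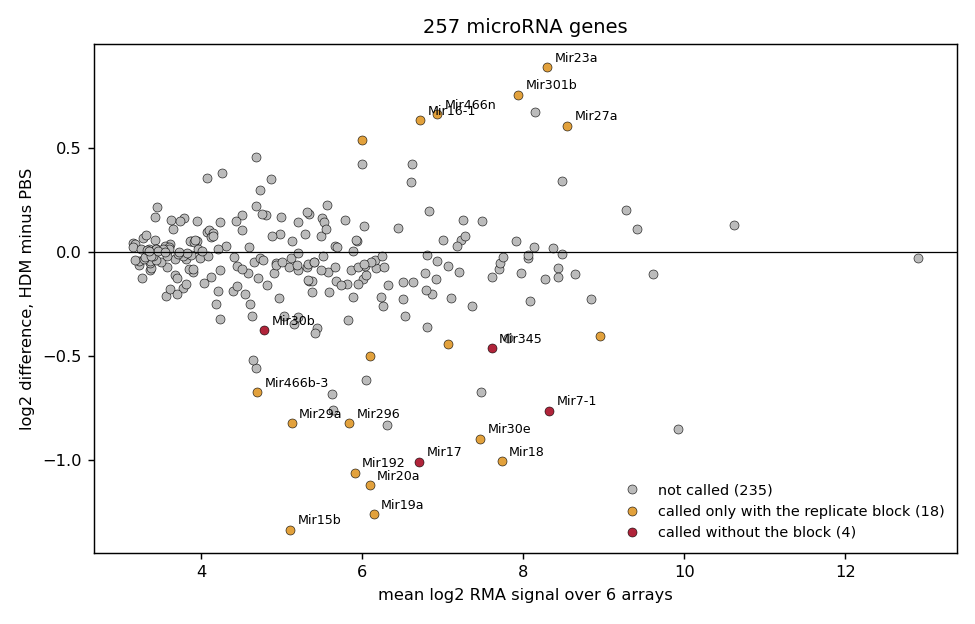
Difference in log2 signal, HDM minus PBS (y axis), against mean log2 signal over the 6 arrays (x axis) for the 257 microRNA genes, with the 4 called by limma, the 18 called when the replicate number was a block, and the 235 others marked apart. Most points lie close to the median of -0.04, and 6 genes lie at -1 or lower while none lies above 0.89.

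Same-numbered HDM and PBS arrays deviated together, least clearly in pair 2. With the replicate number as a block the counts rose to 6 higher (2.33%, all genes 5.95%) and 16 lower (6.23%, all genes 6.01%). These 22 genes included all 4 called without the block. Of the 16 lower genes, 13 had their smallest difference in the third pair. Without both arrays numbered 3, an alternative chosen after seeing the data, 6 were higher (all genes 5.64%) and 19 lower (all genes 5.98%). All 4 calls of the fit without the block were lost when PBS array 1 or 2 or HDM array 1 or 2 was left out, where lower calls over all genes also dropped, from 345 to between 41 and 70. Lower microRNA calls numbered 8 without PBS array 3 (all genes 1.56%) and 12 without HDM array 3 (all genes 3.26%). Adjusted over all 33960 probe sets, where 448 (1.32%) were higher and 238 (0.701%) lower, no microRNA gene passed.

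**Figure D3:**
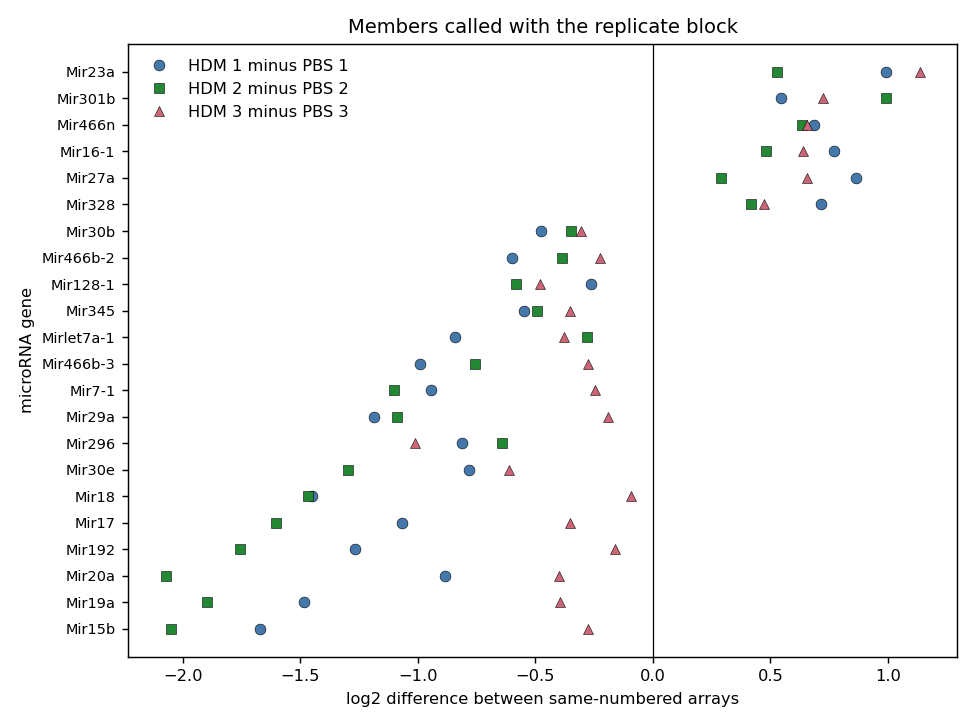
HDM minus PBS difference in log2 signal within each of the 3 same-numbered pairs of arrays, for the 22 microRNA genes called with the replicate number as a block. For 13 of the 16 lower genes the value of pair 3 is the one nearest to 0.

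Mir17 gives its name to a polycistron whose microRNAs promote proliferation and survival of lymphocytes. It read 7.36, 7.38 and 6.90 on PBS arrays 1 to 3 and 6.29, 5.78 and 6.55 on the HDM arrays. Every HDM array lay below every PBS array, with HDM array 3 the nearest. Mir17 fell by 1.01 ± 0.21 (SE), 2.01 times lower signal in HDM, with a limma adjusted p of 0.0421 (0.024 with the block). Its differences in the 3 pairs were -1.07, -1.60 and -0.35.

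The cluster holds 6 hairpins within 836 bases of chromosome 14, of which 4 were measured alone, and in all 4 the groups were apart with HDM lower. Their median difference was -1.06, and the medians within pairs were -1.26, -1.75 and -0.37. Mir18 read 8.44, 8.55 and 7.71 in PBS and 6.996, 7.08 and 7.61 in HDM. PBS array 3 and HDM array 3 nearly met, and the difference of -1.003 ± 0.25 had an adjusted p of 0.0713 by limma (0.0452 with the block).

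Mir19a, whose seed differs from that of Mir17, read 6.74, 6.84 and 6.74 in PBS and 5.26, 4.95 and 6.35 in HDM. The PBS arrays were close together and HDM array 3 stood nearest to them. The difference was -1.26 ± 0.31 (adjusted p = 0.0733 by limma, 0.0211 with the block). Mir20a, which shares the seed of Mir17, read 6.55, 7.18 and 6.24 in PBS and 5.66, 5.11 and 5.84 in HDM, a difference of -1.12 ± 0.26 (adjusted p = 0.061 by limma, 0.0419 with the block). Only Mir17 of the 4 passed without the block, and all 4 with it. Without HDM array 3, the adjusted p of Mir17 was 0.0143, and without PBS array 2 it was 0.184.

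The primary transcript of the cluster shared a probe set with Mir19b-1 and Mir92-1, which read 7.99, 8.26 and 7.57 in PBS and 6.77, 6.51 and 7.28 in HDM. Here too the groups were apart, with a difference of -1.09 ± 0.24 (adjusted p = 0.0744 over all probe sets by limma). The hairpins of a cluster come from the same transcript, so their signals are not independent measurements.

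**Figure D4:**
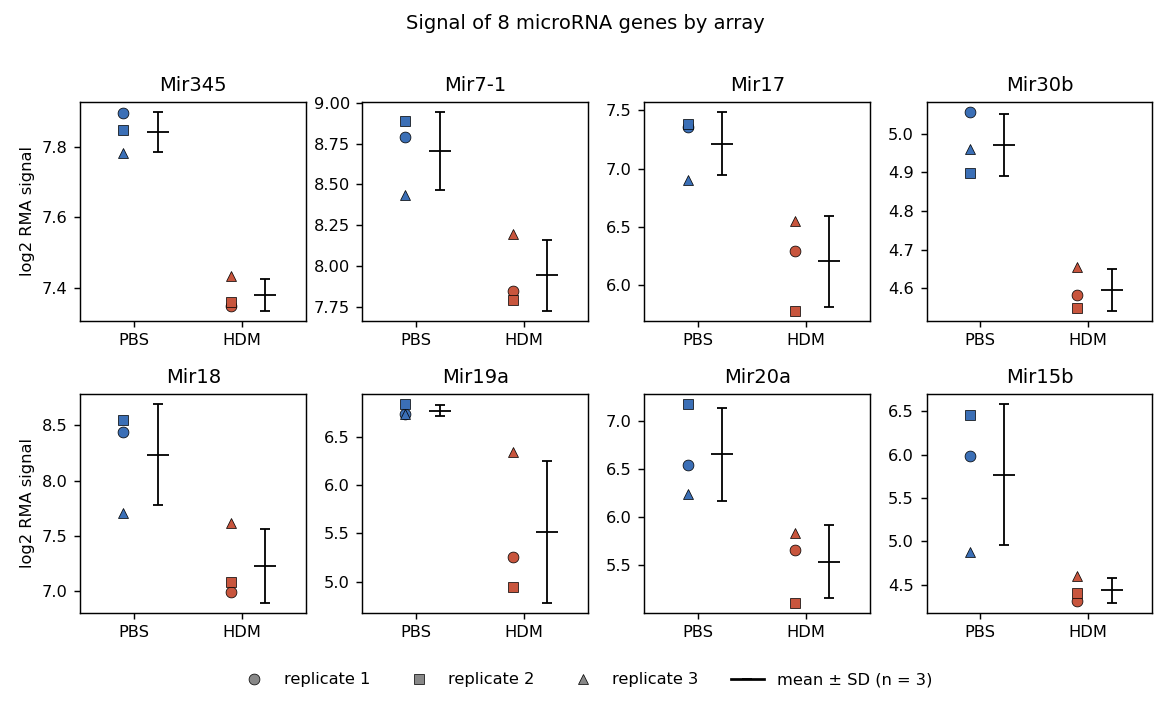
Log2 signal (y axis) on each array for 8 microRNA genes in PBS and HDM cells, with points for the 3 arrays of each group and the mean ± SD. HDM arrays lie below PBS arrays in all 8 panels, and only Mir345, Mir7-1, Mir17 and Mir30b passed the test without the replicate block.

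The 2 paralogous clusters gave smaller differences than the chromosome 14 cluster, though this contrast was not tested. On the X chromosome, the 5 measured genes of the cluster of Mir363 (Mir363, Mir92-2, Mir19b-2, Mir20b and Mir18b) had a median difference of -0.02. All but Mir20b were dim, with mean signals of 3.65 to 4.13 where the 25th percentile of all genes was 5.70. This limits the fall that they could show. Mir363 itself read 3.91, 3.86 and 3.91 in PBS and 4.31, 4.33 and 4.09 in HDM, with HDM higher on every array and a difference of 0.35 ± 0.09 (adjusted p = 0.071 by limma). Mir106b, inside the replication gene Mcm7, had a difference of -0.31 (adjusted p = 0.128). The probe set shared by Mir25 and Mcm7 had -0.44 (adjusted p = 0.202 over all probe sets), with every HDM array below every PBS array. The probe set of Mir93 and Mcm7 had -0.08 (adjusted p = 0.747), and that of Mir106a, from the X chromosome cluster, and Kis2 had 0.04 (adjusted p = 0.919). Over the 10 measured of 15 genes listed for these clusters, 1 was called lower and none higher (4 lower with the block), 8 lay below 0, and the median was -0.21. Of all genes, 2.39% were higher and 1.56% lower, or 6.01% lower with the block. The 4 lower with the block are those of the chromosome 14 cluster, which come from the same transcript. The seed of Mir17 was carried by 4 measured genes (Mir17, Mir20a, Mir106b, Mir20b), all below 0, with a median of -0.66.

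Mir7-1 is the copy of the miR-7 precursor that lies within an intron of Hnrnpk, a gene for an abundant RNA-binding protein. It read 8.79, 8.89 and 8.44 in PBS and 7.85, 7.79 and 8.19 in HDM. The groups were apart, again with the arrays numbered 3 nearest to each other. Mir7-1 fell by 0.76 ± 0.16 (1.7 times lower signal, limma adjusted p = 0.0398, 0.0242 with the block). Hnrnpk itself differed by 0.01 (adjusted p = 0.972), and the other genes with the seed of Mir7-1, Mir7-2 and Mir7b, by 0.22 and 0.06.

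Mir345 had the smallest adjusted p of the 257. Its signals were 7.90, 7.85 and 7.78 in PBS and 7.35, 7.36 and 7.43 in HDM. The arrays of each group lay close together and the groups did not meet. Mir345 fell by 0.46 ± 0.09 (1.38 times lower signal, limma adjusted p = 0.0311, 0.017 with the block).

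Mir30b, a known relative of Mir30e, read 5.06, 4.90 and 4.96 in PBS and 4.58, 4.55 and 4.66 in HDM, a fall of 0.38 ± 0.08 (limma adjusted p = 0.045, 0.0357 with the block). Its signal lay below the 25th percentile of all genes (5.70). The call was lost under median centring, without the intensity trend and with robust eBayes. Mir30d, its neighbour, differed by 0.06. Mir30e, in the transcription factor gene Nfyc, read 8.15, 7.80 and 7.81 in PBS and 7.37, 6.50 and 7.19 in HDM. All HDM arrays were lower, and the difference of -0.90 ± 0.22 had an adjusted p of 0.0711 (0.00767 with the block). Mir30c-1, in the same gene, had -0.62 (adjusted p = 0.172), and Nfyc -0.16 (adjusted p = 0.469).

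Genes with the seed AGCAGCA lay on both sides of 0. Mir15b, which with Mir16-2 lies in the condensin gene Smc4, had the most negative difference of the 257, reading 5.98, 6.45 and 4.87 in PBS and 4.31, 4.40 and 4.60 in HDM. The HDM arrays were close together and below all PBS arrays, of which array 3 was far lower than the other two. The difference was -1.33 ± 0.35 with a limma adjusted p of 0.0836 (0.0301 with the block). Mir16-2 differed by -0.67 with overlapping groups, and Smc4 by -0.50 (adjusted p = 0.0705, 0.0061 with the block).

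Mir15a and Mir16-1 lie in Dleu2, a transcript long known from its deletion in B cell leukaemia, and had differences above 0. Mir15a read 8.24, 8.36 and 8.34 in PBS and 8.72, 8.51 and 8.72 in HDM, with groups apart and a difference of 0.34 ± 0.10 (limma adjusted p = 0.12). Mir16-1 read 6.68, 6.65 and 5.89 in PBS and 7.45, 7.13 and 6.53 in HDM. The groups overlapped, but each HDM array exceeded the PBS array of its number, and the difference of 0.63 ± 0.28 had an adjusted p of 0.291 (0.00802 with the block). Dleu2 had 0.39 (adjusted p = 0.33). Over the 6 measured genes with the seed, the values ran from -1.33 to 0.63.

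Of the other genes among the 16 lower with the block, Mir192 read 6.46, 6.40 and 6.46 in PBS and 5.20, 4.64 and 6.30 in HDM. PBS arrays were nearly equal and HDM array 3 was close to them, with a difference of -1.06 ± 0.35 (limma adjusted p = 0.161, 0.0432 with the block) that was -0.69 without HDM array 2. Mir296, of the imprinted Gnas region, differed by -0.82 in non-overlapping groups (adjusted p = 0.135, 0.00373 with the block). Mir29a, known for restraining interferon-gamma output of T cells, read 5.37, 5.03 and 6.20 in PBS and 4.18, 3.94 and 6.01 in HDM. HDM array 3 overlapped the PBS arrays, and the difference was -0.82 ± 0.53 (adjusted p = 0.493, 0.0327 with the block). It was -0.49 without PBS array 3, -0.44 without HDM array 2, and -1.47 without HDM array 3, where it passed without the block (adjusted p = 0.03). Mir29b-1, its neighbour, differed by -0.04. The remaining 4 were Mirlet7a-1 (-0.50), Mir128-1 (-0.44), Mir466b-2 (-0.40) and Mir466b-3 (-0.67), the last 2 with close copies.

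The highest difference was that of Mir23a, which with Mir27a and Mir24-2 forms a cluster known to restrain effector T cells and Th2 cytokines. Mir23a read 7.45, 7.87 and 8.24 in PBS and 8.45, 8.39 and 9.38 in HDM. Every HDM array was above every PBS array, and array 3 was the highest of its group in both. The difference of 0.89 ± 0.29 did not pass without the block (limma adjusted p = 0.155) and passed with it (0.00539). Without HDM array 3 it was 0.57. Mir27a read 7.73, 8.20 and 8.81 in PBS and 8.59, 8.49 and 9.47 in HDM, with overlap and a difference of 0.60 ± 0.33 (adjusted p = 0.398, 0.0182 with the block). It was 0.34 without PBS array 1 and 0.29 without HDM array 3. Mir24-2 shared both of its probe sets with Mir3074-2, and these differed by 0.55 (adjusted p = 0.378) and -0.17 (adjusted p = 0.745).

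The other 3 genes higher with the block were Mir328, Mir466n and Mir301b. Mir328 read 5.70, 5.89 and 5.59 in PBS and 6.41, 6.31 and 6.06 in HDM, with groups apart, a difference of 0.54 ± 0.12 and the smallest adjusted p among the higher genes without the block (0.0566 by limma, 0.0164 with it). Mir466n differed by 0.66 ± 0.21 (adjusted p = 0.144, 0.00418 with the block) with steps of 0.69, 0.63 and 0.66 in the pairs. A probe set that names Mir466n beside Mir466d differed by -0.02, with steps of 0.06, -0.30 and 0.16. Mir301b differed by 0.75 ± 0.27 (adjusted p = 0.195, 0.00535 with the block). Mir350, in the centrosomal gene Cep170, differed by 0.46 (adjusted p = 0.133) and Cep170 by 0.60 (adjusted p = 0.0513, 0.00509 with the block). Mir465, of a germline cluster on the X chromosome, was dim at 3.32 to 3.69 over all arrays and differed by 0.22.

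Mir155, which T cells induce on activation and which Th2 cells need in allergic airway responses, was measured only through a probe set shared with its primary transcript Mir155hg. That probe set read 8.03, 8.14 and 7.70 on the PBS arrays and 8.31, 8.16 and 8.34 on the HDM arrays. All HDM arrays were above all PBS arrays, but HDM array 2 exceeded PBS array 2 by only 0.02. The difference of 0.31 ± 0.13 did not pass limma's test (adjusted p = 0.305 over all probe sets, 0.216 with the block). It was 0.19 without PBS array 3 and 0.15 without both arrays numbered 3.

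The rest of the T cell activation list gave no call without the block. Of 22 genes, 15 were measured alone, with a median difference of -0.03. The 2 called with the block, both higher (all genes 5.95%), were Mir23a and Mir27a. Mir146, which damps receptor signalling, read 4.04, 4.02 and 4.15 in PBS and 4.47, 3.99 and 4.89 in HDM (0.38, adjusted p = 0.379), with overlap. Mir146b, its relative, had -0.07, and Mir31, linked to T cell calcium signalling, had 0.42 (adjusted p = 0.225). Mir132, induced by activity in many cells, read 5.59, 5.76 and 5.50 in PBS and 5.23, 5.15 and 5.38 in HDM, apart but not called (-0.36, adjusted p = 0.108). Mir182 (-0.03), Mir210 (0.02), the hypoxia microRNA, and Mir326 (-0.02), known from Th17 cells, had differences near 0.

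Among microRNAs of resting and developing T cells, 24 of 28 listed were measured, with none higher and 1 lower (1 and 4 with the block), 19 below 0 and a median of -0.11. Of all genes, 2.39% were higher and 1.56% lower, or 5.95% and 6.01% with the block. Mir150, abundant in resting lymphocytes, read 6.18, 6.39 and 6.65 in PBS and 7.47, 6.70 and 6.31 in HDM. The arrays crossed, with HDM array 1 the highest and HDM array 3 below PBS array 2 (0.42 ± 0.27, adjusted p = 0.489). Mir181a-1, which sets receptor sensitivity in the thymus, was dim at 3.51 to 4.08 (-0.12). The 6 measured genes with the seed of Mir181 had no call.

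Let-7 genes, known for repressing growth and effector programmes, lay mostly below 0 without a call. Of 14 listed genes 12 were measured, 10 lay below 0, the median was -0.19, and Mirlet7a-1 alone passed with the block (lower, all genes 6.01%). Of all 257 microRNA genes, 61.5% lay below 0. Some let-7 genes share a cluster, and some were dim, such as Mirlet7f-2 and Mirlet7f-1 at mean signals of 3.26 and 3.37. Mir98, a let-7 relative, read 6.52, 7.11 and 6.54 in PBS and 6.40, 5.14 and 6.13 in HDM (-0.83, adjusted p = 0.215), with HDM array 2 far below the others. Mirlet7g read 5.31, 4.95 and 4.62 in PBS and 4.29, 4.37 and 4.54 in HDM (-0.56, adjusted p = 0.123), apart by little. The lists of microRNAs of other cell types (31 of 37 measured, median -0.03) and of germline and imprinted clusters (26 of 43, median 0.01) held no call with or without the block.

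Neighbourhood was shared widely: 41 clusters of hairpins within 10 kb on the same strand held 114 of the 257 genes. In 23 of the 41 clusters all differences lay on 1 side of 0. Most clusters held only 2 measured genes, and 61.5% of all 257 genes lay below 0. Unrelated pairs would often share a side too, so joint movement of clusters cannot be read from this count. In all, 81 genes lay inside a measured gene on the same strand by the RefSeq tables used. Smc4, given above as the gene that holds Mir15b and Mir16-2, was not matched there, so neither is among the 81. Across these 81, the differences of microRNA and host had a Pearson r of 0.383 and a Spearman rho of 0.358, with 50 on the same side of 0. This is a description across genes measured on the same arrays, several of them in 1 host. Of the 64 hosts, Ska2, which holds Mir301, rose by 0.68, and Pde2a, a cyclic nucleotide phosphodiesterase that holds Mir139, fell by 0.83, while Mir139 differed by 0.05. With the block 4 hosts were higher, Ska2, Cep170, Clcn5 (0.49) and Tango2 (0.31), and 4 lower, Pde2a, Evl (-0.45), Tmem245 (-0.29) and Huwe1 (-0.25). In a separate list of host genes written from general knowledge, 50 of 57 were measured, 1 rose (Vmp1) and 1 fell (Pde2a), or 2 and 6 with the block, and the median was -0.04. The shares over all genes were 2.39% higher and 1.56% lower, or 5.95% and 6.01% with the block.

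**Figure D5:**
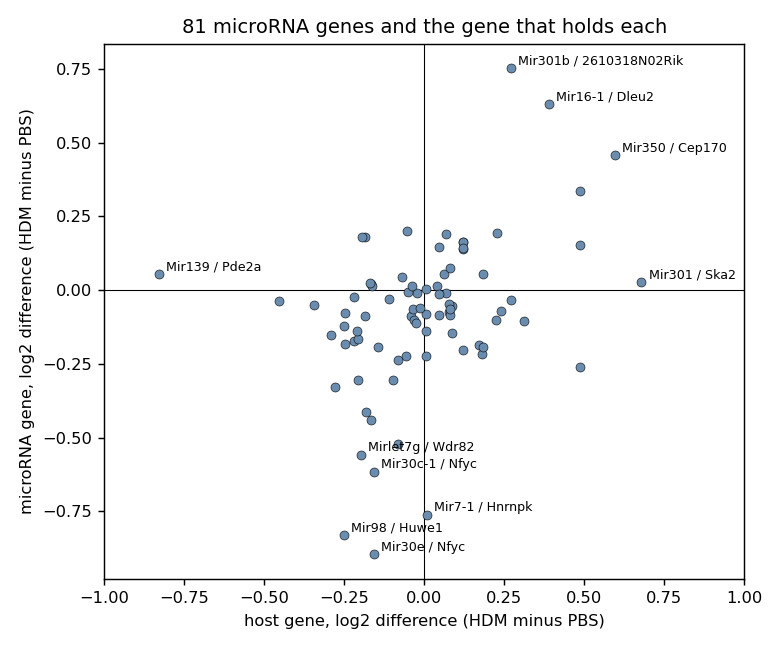
Difference in log2 signal, HDM minus PBS, of 81 microRNA genes (y axis) against that of the gene that contains each on the same strand (x axis). Points lie loosely along a rising line (Pearson r of 0.383), and Mir7-1 lies at -0.76 where its host Hnrnpk lies at 0.01.

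Genes that make and use microRNAs gave no call by limma without the block. Of 33 listed, 30 were measured, 23 lay below 0 and the median was -0.08. The largest differences were those of the Argonaute gene Ago4 (0.50, adjusted p = 0.087) and of Tut4 (-0.45, adjusted p = 0.177), which adds uridines to the let-7 precursor. Drosha had -0.14, Dicer1 -0.21 and Ago2 -0.16. With the block, 3 were lower (all genes 6.01%), Tut4, the exonuclease gene Xrn2 (-0.43) and the helicase gene Ddx5 (-0.24).

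Genes known as targets of T cell microRNAs were listed from general knowledge, with earlier results of these data known, and 34 of 38 were measured. Of these 7 rose and 2 fell (all genes 2.39% and 1.56%), or 12 and 5 with the block (all genes 5.95% and 6.01%). The median difference was 0.14 beside -0.01 for all genes. Given how the list was drawn up, these counts cannot be read as an effect of microRNAs. Il13, a Th2 cytokine gene, rose by 3.35, the cytokine gene Il10 by 3.27, Il4 by 1.62, the transcription factor genes Maf by 1.57 and Gata3 by 1.02, and the survival gene Bcl2 fell by 0.80. Maf is a described target of Mir155, and Il4 and Gata3 of the Mir23a cluster. Bcl2l11, which encodes the death-promoting protein Bim and is a described target of the Mir17 cluster, read 10.51, 10.75 and 11.30 in PBS and 10.04, 9.83 and 10.72 in HDM (-0.66, adjusted p = 0.236, 0.00561 with the block).

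Next to the number limit, Mir499 (0.19, adjusted p = 0.724) and Mir500 (-0.26, adjusted p = 0.455) lay inside, and Mir501 (0.10, adjusted p = 0.646) and Mir504 (-0.15, adjusted p = 0.495) outside.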

How the data were processed

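RNA of 6 samples (3 PBS, 3 HDM) was measured on arrays. The deposited values are log2 signals, 1 per probe set, which the authors made with RMA (background correction, quantile normalization, probe set summary). The submitters' processing notes name RMA without giving a version; a change in total RNA per cell cannot be seen in such values, and the number of arrays limits the precision. No detection call was used. GEO's platform annotation supplied the gene names. Out of 33960 probe sets, 23521 had 1 symbol, 1814 several and 8625 none, and those with 1 symbol gave 22180 genes; no gene was filtered for low signal.

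The test was limma 3.58.1 in R 4.3.3 (lmFit, then eBayes with a trend in intensity; tested on simulated data), two-sided, with Benjamini-Hochberg adjustment over all 22180 genes and a threshold of 0.05. Mir155 and other shared probe sets were fitted with all 33960 probe sets. SEs are moderated. Same-numbered arrays had correlated deviations from their group means over all genes (r of 0.428, 0.172 and 0.531 in pairs 1, 2 and 3). The number was therefore tried as a block. HDM array 2 correlated more with PBS array 1 (r of 0.246) than with PBS array 2, so pair 2 is not clearly a pair. Over the microRNA genes these values were 0.204 and 0.27. The labels give the number as that of a biological replicate and do not say what else it marks. The fit with the number as a block is given beside results whose call or count it changes. No scan date or other batch was given in the sources used here. Sequences, clusters, host genes and GC content came from RefSeq tables of GRCm38.p6, without a genome.

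Named genes were all called ones, the 8 largest differences per direction among genes whose groups did not overlap, the 6 brightest, fixed T cell microRNAs, up to 6 called genes per other list and the hosts of named genes. Of the fixed ones, Mir223, Mir126a and Mir10a were measured only through probe sets shared with other symbols, and their values are not reported here. Relatives by seed, cluster or block call were added after their values were seen. The members and lists were chosen with earlier results of these data known. Alternatives were other normalizations, trend, robust and weighted fits, filters on dim genes, probe set rules, a threshold of 0.1 and leaving out arrays.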

Additional observations from a re-analysis of the deposited data

Results flagged for a closer look

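A total of 61 probe sets name a microRNA gene beside another symbol and so stayed out of the comparison. Of these, 2 passed limma's test over all 33960 probe sets with HDM above PBS, as did 1.32% of all probe sets. Several of the 61, such as those of Mir467a, carry identical values. The probe set shared by Vmp1 and Mir21a read 9.36, 9.29 and 9.25 in PBS and 9.91, 9.91 and 9.95 in HDM, a difference of 0.63 (adjusted p = 0.0145). Mir21a is a microRNA known to be induced in activated T cells and in allergic airways. The probe set shared by AA467197 and Mir147 read 5.85, 6.06 and 6.06 in PBS and 7.43, 7.18 and 7.25 in HDM, a difference of 1.29 (adjusted p = 0.00547). In both, all HDM arrays lay above all PBS arrays. Whether the microRNA or the other transcript gave the signal was not tested; Vmp1 measured alone rose by 1.15 (adjusted p = 0.0328).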

How the results depend on the processing

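Counts of calls moved with the setting, among microRNA genes and among all genes. There were 3 arrays a group, and many microRNA genes had signals near the floor of the arrays. Lower microRNA genes (4) became 12 with array weights, 0 adjusted over all probe sets, 16 with the replicate block, 9 at a threshold of 0.1, 19 without both arrays numbered 3, and 0 to 12 with 1 array left out. Lower calls over all 22180 genes (345) became 923, 191, 1334, 716 and 1326 in the same order, and 41 to 722. Higher microRNA genes (0) became 2, 6, 2 and 6 with array weights, the block, the threshold of 0.1 and without the arrays numbered 3, 1 with a filter at the 25th percentile, and 0 to 2 with 1 array left out. Higher calls over all genes (531) became 914, 1319, 819 and 1250, then 604 of 16635 with the filter, and 177 to 845. The median difference of microRNA genes was -0.084 with the filter at the 25th percentile, which keeps fewer genes. Calls in the list of 57 host genes (2) became 4, 8, 4 and 7 under array weights, the block, the threshold of 0.1 and without the arrays numbered 3, 1 adjusted over all probe sets, and 0 to 4 with 1 array left out. Biogenesis genes called (0) became 2, 3, 2 and 5 under the same 4 settings, 1 with a filter at the median, and 0 to 2 with 1 array left out. Target genes called (9) became 17 with the block, 18 without the arrays numbered 3, and 4 to 12 with 1 array left out. Mir30b lost its call with median centring, without the trend and with robust eBayes. The adjusted p of Mir155 ran from 0.207 to 0.526 over its alternatives. Differences near 0 changed sign: Mir181a-1 to 0.10 without the arrays numbered 3, and Mir210 to -0.043 there and to -0.00085 with repeated quantile normalization. With 1 array left out, Mir146b ran from -0.42 to 0.21, Mir181a-1 from -0.21 to 0.037, Mir210 from -0.068 to 0.12, Mir29b-1 from -0.14 to 0.065, Mir326 from -0.11 to 0.12, Mir449b from -0.089 to 0.014, Mir466h from -0.035 to 0.34, Mir467c from -0.0067 to 0.17 and Mir467e from -0.30 to 0.0016. The cause of these changes was not tested.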
